A study of Mus musculus with 6 samples.

Results

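The ATP-binding cassette (ABC) genes were compared between the mouse line MC3T3-E1, whose cells resemble osteoblasts, and a form of it that had become resistant to fluoride. The members are the rows of the deposited gene table whose symbol is Abc, a subfamily letter from a to g, a number and at most 1 further letter. They are 50 of the 54433 genes in the table, with 16 in subfamily A, 10 in B, 10 in C, 4 in D, 1 in E, 3 in F and 6 in G. RNA sequencing was done on 6 libraries. The 3 WT libraries are the controls, wildtype cells in the culture medium DMEM. The 3 FR libraries came from cells that are labelled resistant to 30 ppm fluoride and treated with a gradient of 30 ppm, and the protocol describes how cells were kept in a 10 ppm gradient without a break until they grew at a normal rate. Resistance and exposure to fluoride are therefore not separated by these groups. The protocol speaks of several clones, and it is not said whether the FR libraries came from 1 clone or whether the 3 libraries of a group were separate cultures, so p-values measure the spread between libraries, which may be technical. The series title speaks of osteoblasts from mice, and the sample labels, which name the cell line, were followed.

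ABC proteins bind and split ATP in a conserved cassette. In most of them this drives lipids, drugs, conjugates, peptides or metals through membrane-spanning helices, out of the cell or between its compartments. Subfamily A moves mainly lipids, B and C include the drug and conjugate pumps, D serves the peroxisome and lysosome, and G includes sterol and drug exporters. Subfamilies E and F have the cassette without the membrane part and act on ribosomes. In osteoblasts and other mesenchymal cells these genes bear on sterol efflux, on the export of prostaglandins and cyclic nucleotides, and on the handling of toxic compounds.

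Library totals ran from 19246119 counts in the smallest FR library to 27140662 in the largest WT library, and 3 counts in a library corresponded to 0.11 to 0.156 CPM (counts-per-million of the library, after TMM scaling), which covers counting error only. The osteoblast genes Runx2, Spp1, Col1a1, Col1a2 and Dmp1 were detected and all 5 fell in FR. Among all tested genes 34.6% rose and 35.5% fell. The summed CPM of the 9 osteoblast markers was 15650 to 15951 in the WT libraries and 4155 to 4203 in the FR libraries. Most of that sum was Col1a1 (mean 5055 CPM in WT and 635 in FR) and Col1a2 (9282 and 3104), whereas Runx2 fell 1.22-fold. The defining markers Sp7, Alpl, Bglap and Ibsp had between 0 and 8 counts in every library. Of 8 macrophage and osteoclast markers, 3 were tested, with Csf1r and Cd68 higher and Ctsk lower in FR. Mean CPM went from 0.587 in WT to 7.14 in FR for Csf1r, from 0.467 to 2.26 for Cd68 and from 7.94 to 2.87 for Ctsk. The summed CPM of the 8 markers, in which these opposite changes partly cancel, was 7.84 to 10.2 in WT and 11.3 to 14.4 in FR. Ptprc had at most 5 counts and Adgre1 at most 1 count in a library. Of the 6 adipocyte, 5 endothelial and 5 epithelial markers, Fabp4 rose and Emcn fell, Adipoq and Epcam had at most 1 count in a library, and no such list summed to over 3.82 CPM in any library. The part of these marker changes in the results below was not tested. In bulk RNA a lower share of cells that use a gene and less of its RNA per cell cannot be told apart.

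Enough counts for a test were found for 28 of the 50 ABC genes. Of these 28, 10 rose and 11 fell in FR (edgeR quasi-likelihood test, Benjamini-Hochberg adjusted p under 0.05), and 7 did not pass. The 21 called genes are 75% of those tested, against 70.1% of all 14889 tested genes, and the split was 35.7% higher and 39.3% lower against 34.6% and 35.5% of all genes, so the number of calls was near the background. At least 2-fold falls were found for 6 members (21.4%, against 11.4% of all tested genes): Abca9, Abcg2, Abca3, Abcb1a, Abcd2 and Abca8b. An at least 2-fold rise was found for 1 (3.57%, against 7.4%), Abca16. The median log2 fold change was −0.07 over the 28 genes and 0.00 over all tested genes, and the median size of the change regardless of sign was 0.45 against 0.35. WT and FR libraries were separated in CPM for 21 of the 28 (75%, against 72.4% of all tested genes), with FR above WT for 10 (all genes 35.7%) and not overlapping below WT for 11 (all genes 36.6%). Nothing particular to the family is read from these counts.

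The other 22 members had at most 13 counts in any library. They were Abca4, Abca6, Abca8a, Abca12, Abca13, Abca14, Abca15 and Abca17 in subfamily A, Abcb4, Abcb5, Abcb9 and Abcb11 in B, Abcc2, Abcc3, Abcc6, Abcc8, Abcc9 and Abcc12 in C, and Abcg1, Abcg3, Abcg5 and Abcg8 in G. Abca14, Abcc6, Abcg1 and Abcg5 had 0 counts in every library, which allows up to 3 counts, or 0.11 to 0.156 CPM. Abcc6 is known for its part in the release of ATP that yields the mineralisation inhibitor pyrophosphate, and Abcg1 for sterol export next to Abca1. Abcb4, the phosphatidylcholine exporter of bile, and Abcb11, the bile salt pump, had at most 2 counts. Abcc8 and Abcc9, the regulatory subunits of ATP-sensitive potassium channels, also had at most 2 counts, and the pore genes Kcnj8 and Kcnj11 had 0 in every library.

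Compared per length, as CPM per kilobase of the gene length in the table, the levels of the 28 tested genes in WT spanned 1243-fold. The highest belonged to Abcf2 (68.1), Abcf1 (65.8) and Abce1 (62.5), followed by Abcc1 (26.3) and Abcd3 (26.2), and the lowest to Abca16 (0.0548) and Abcg4 (0.237). Abce1 and the 3 Abcf genes together made up 54.0%, 54.0% and 54.1% of the summed CPM per kilobase of all ABC genes in the WT libraries and 54.7%, 56.0% and 55.1% in the FR libraries. The order changed most for Abca9, which went from place 15 of 28 in WT to place 28 in FR, and for Abcg2, which went from place 12 to place 21. Abca2 went from place 9 to place 5. Summed over subfamily G, CPM per kilobase went from 7.80 ± 0.147 to 1.24 ± 0.0583 (SD over n = 3 libraries), nearly all of it Abcg2.

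**Figure D1:**
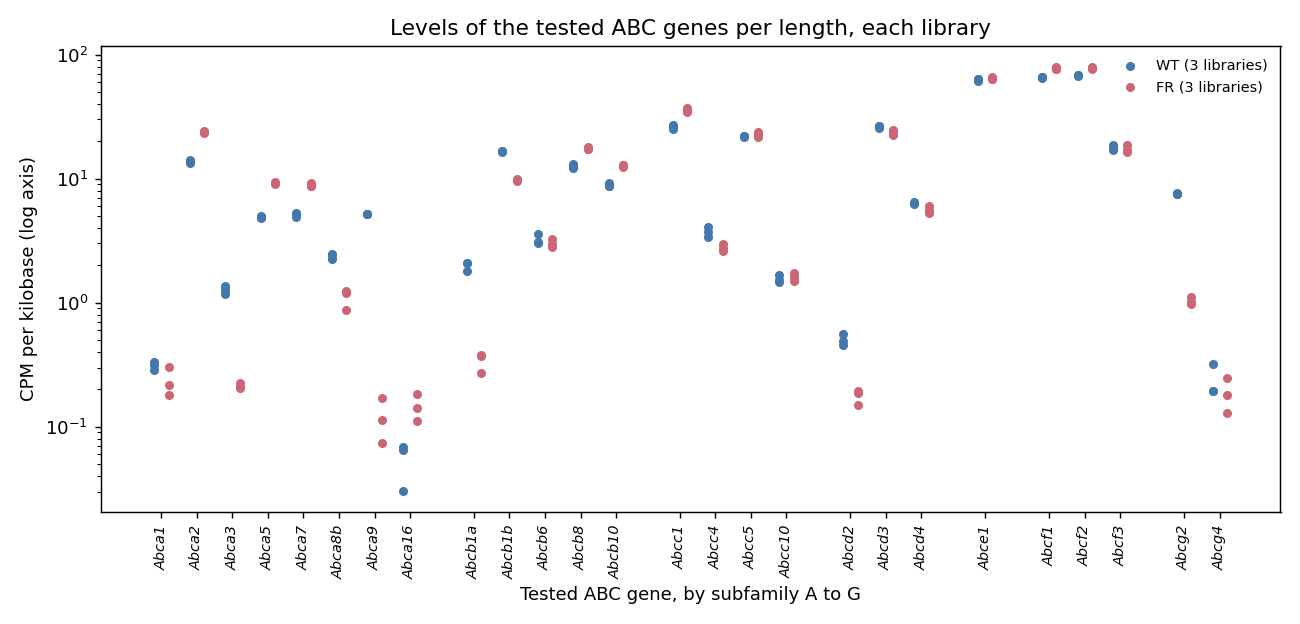
Level of tested ABC genes in each library, in CPM per kilobase on a log axis, with genes on the horizontal axis by subfamily and 3 WT and 3 FR points per gene. Abce1, Abcf1 and Abcf2 sit highest in both groups, while Abca9 lies near 5 in WT and near 0.1 in FR.

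**Figure D2:**
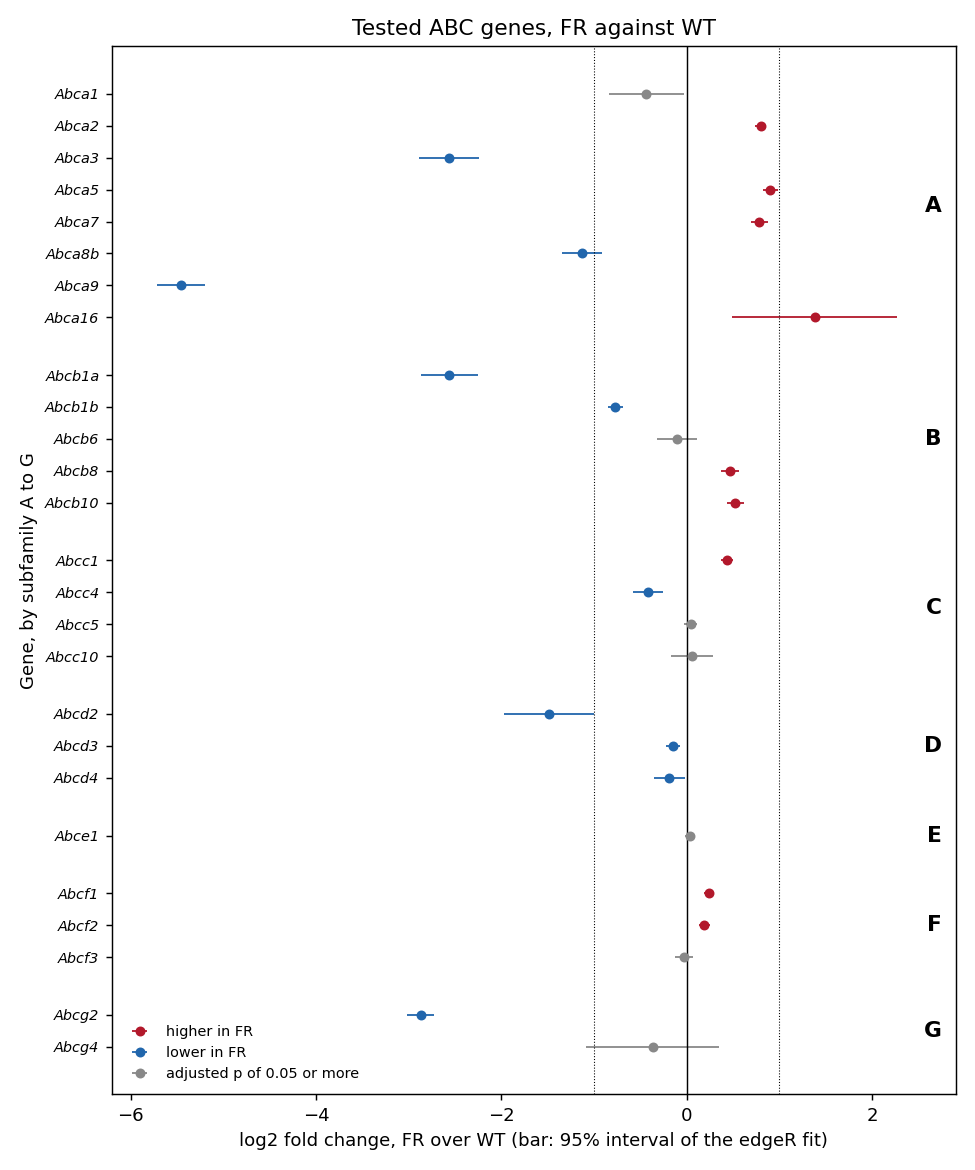
Log2 fold change of FR over WT for tested ABC genes, with 95% intervals from the edgeR fit and dotted lines at 2-fold. The 4 points farthest left are Abca9, Abcg2, Abca3 and Abcb1a, the genes of subfamily D shown all lie left of 0, and the genes of subfamilies E and F lie close to 0.

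Subfamily A split in both directions, with 4 members higher, 3 lower and 1 that did not pass among 8 tested. Among all tested genes 34.6% were higher and 35.5% lower, so nothing particular to subfamily A is read from this count. Abca9 (ENSMUSG00000041797), one of a group of A-type genes related to Abca6, had the largest change of any member. Its level was 32.9, 33.1 and 33.4 CPM in the WT libraries and 1.09, 0.719 and 0.472 CPM in the FR libraries. Every FR library was far below every WT library, and the FR values rest on 21, 18 and 10 counts. The fold difference was 43.9 (log2 fold change −5.46 ± 0.13 SE, adjusted p = 1.53e-24). Abca3 (ENSMUSG00000024130), the lipid pump of lamellar bodies that is best known from surfactant-making lung cells, had 8.65, 7.45 and 8.07 CPM in WT and 1.30, 1.44 and 1.32 CPM in FR. It was 5.92-fold lower with no overlap (log2 fold change −2.56 ± 0.16 SE, adjusted p = 1.52e-14). The nearest tested protein-coding genes on its 2 sides, Ccnf (log2 fold change 0.14 ± 0.04 SE) and Rnps1 (0.09 ± 0.03 SE), were called higher. Abca8b (ENSMUSG00000020620), a relative of Abca9, had 18.4, 16.8 and 18.1 CPM in WT and 9.24, 6.47 and 8.83 CPM in FR. It fell 2.19-fold (log2 fold change −1.13 ± 0.10 SE, adjusted p = 7.82e-10), with the lowest value in FR replicate 2. Without that library its log2 fold change was −0.98, just inside the 2-fold line.

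The A-type genes that rose were Abca2, Abca5, Abca7 and Abca16. Abca2 (ENSMUSG00000026944), an endolysosomal protein linked to sterol and sphingolipid handling, had 112, 106 and 112 CPM in WT and 194, 188 and 192 CPM in FR, a 1.74-fold rise (log2 fold change 0.80 ± 0.03 SE, adjusted p = 3.75e-19). All FR values of Abca2 were above all WT values. Abca5, a late endosomal and lysosomal member, rose from 40.4 ± 1.09 to 75.5 ± 1.56 CPM, and Abca7, which moves phospholipids and is known as a risk gene for Alzheimer's disease, from 34.2 ± 1.40 to 59.1 ± 2.32 CPM (SD over n = 3 libraries). Abca16 (ENSMUSG00000051900) was the only member at least 2-fold higher, at 0.330, 0.155 and 0.351 CPM in WT and 0.935, 0.719 and 0.567 CPM in FR (log2 fold change 1.38 ± 0.43 SE, adjusted p = 0.00599). These values are 4 to 9 counts in the WT libraries and 12 to 18 in the FR libraries, and without WT replicate 2 its adjusted p was 0.0516. Abca1 (ENSMUSG00000015243), which loads cholesterol and phospholipid onto apolipoprotein A-I, had 3.41, 3.22 and 2.96 CPM in WT and 3.12, 1.84 and 2.22 CPM in FR. FR replicate 1 lay within the WT range, and the difference did not pass (log2 fold change −0.44 ± 0.20 SE, adjusted p = 0.0509). Without FR replicate 1 it passed (log2 fold change −0.67, adjusted p = 0.00677), and without FR replicate 2 the log2 fold change was −0.28 (adjusted p = 0.254). Over the other settings the adjusted p was between 0.0438 and 0.127.

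**Figure D3:**
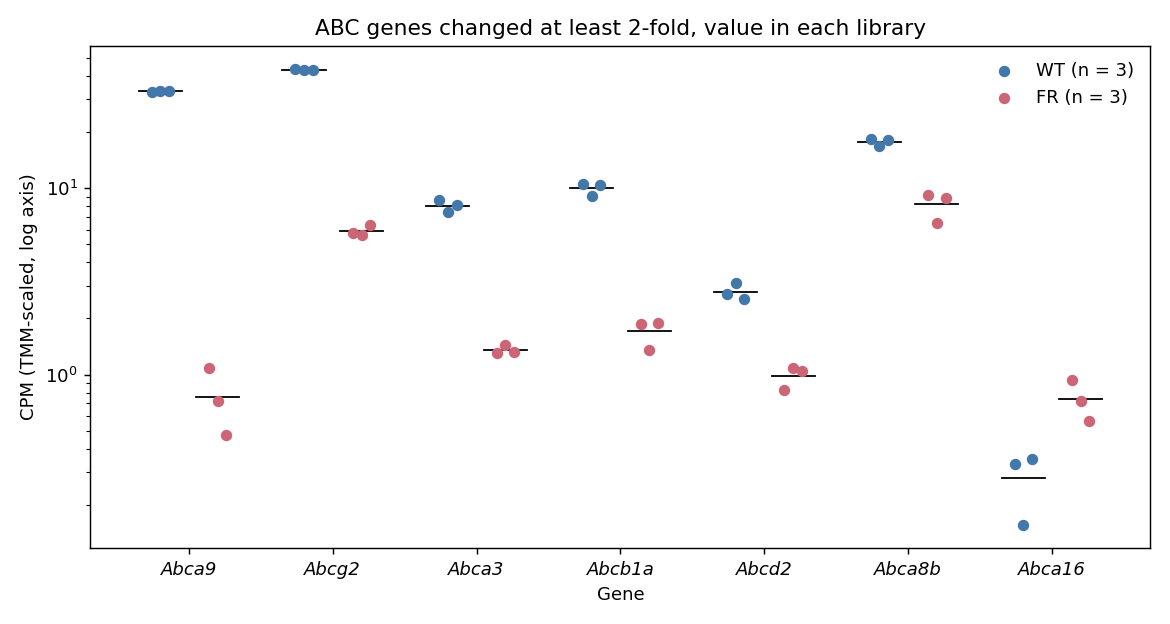
CPM in each library, on a log axis, of the 7 ABC genes that changed at least 2-fold, with 3 WT and 3 FR points per gene and a bar at each mean. WT and FR points do not overlap for any of the 7, and FR is below WT for all but Abca16.

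Abca9, Abca8b and Abca5 lie in 1 row of 5 A-type genes on chromosome 11 in the GRCm38 gene order, which was used here for order only, since the table was made with GRCm39. The order is Abca8b, Abca8a, Abca9, Abca6 and Abca5, all on the minus strand. Within it Abca8b and Abca9 fell and Abca5 rose. Abca6 had 4, 10 and 8 counts in WT and 0, 0 and 1 count in FR, too few for the expression filter, and with no filter it was called lower (adjusted p = 0.00231). Abca8a had 1 to 6 counts in WT and 1 in each FR library. The nearest tested protein-coding neighbours on the outer sides, Fam20a (log2 fold change −0.01 ± 0.11 SE) and Map2k6 (−0.10 ± 0.11 SE), did not pass the test.

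**Figure D4:**
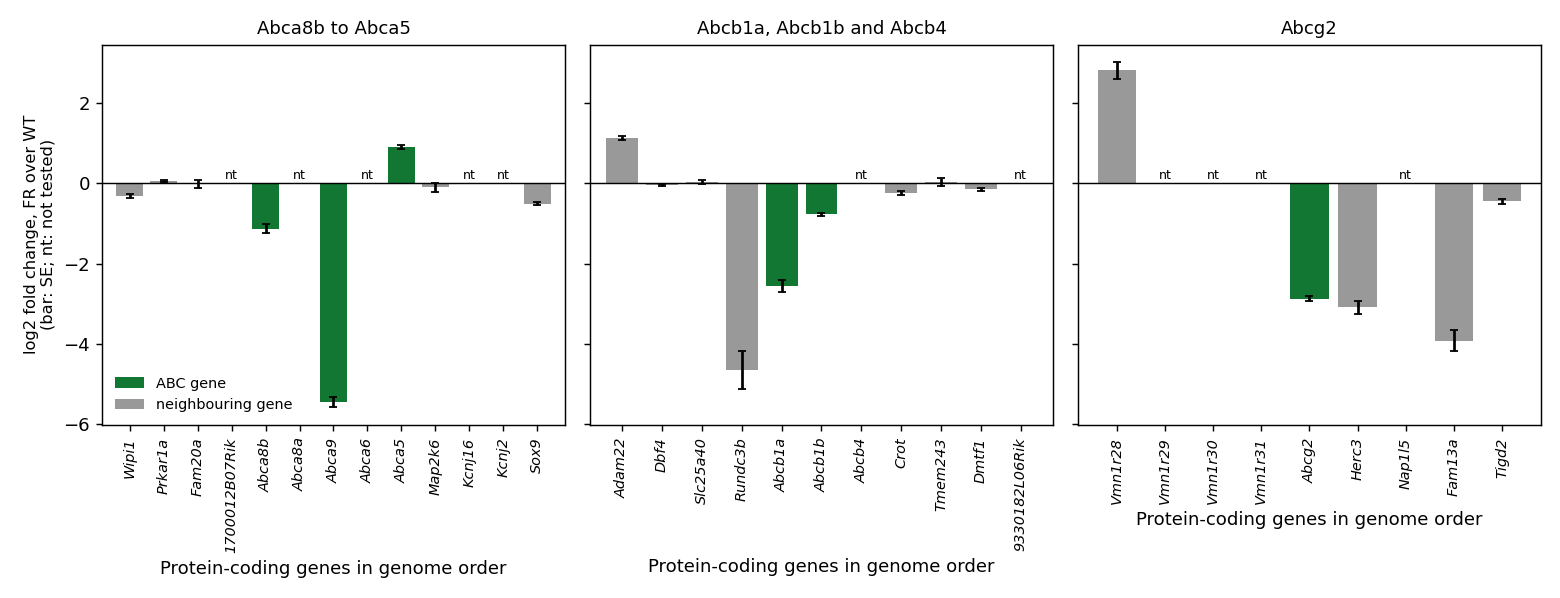
Log2 fold change of FR over WT, with SE as error bars, for protein-coding genes in genome order around 3 sets of ABC genes, with 4 neighbours on each side and nt for genes with too few counts to test. Abca8b and Abca9 point down next to Abca5 pointing up, Rundc3b is down next to Abcb1a, and Herc3 and Fam13a are down next to Abcg2.

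The promoter windows of the 3 tested genes of this row, and of the P-glycoprotein pair described next, are shown because neighbouring or related genes moved differently. Each runs from 250 bases before to 50 after a RefSeq start site in GRCm38.p6, reads 5′ to 3′ in the direction of the gene, and has in capitals any match, on either strand, to GGGCGG (the GC box), CCAAT or TATAAA. These capitals do not overlap each other. In order of genome position they are Abca8b at chr11:109995796-109996095, Abca9 at chr11:110168104-110168403 and Abca5 at chr11:110337667-110337966, all on the minus strand, and Abcb1a at chr5:8566841-8567140 and Abcb1b at chr5:8797897-8798196, both on the plus strand.
Abca8b: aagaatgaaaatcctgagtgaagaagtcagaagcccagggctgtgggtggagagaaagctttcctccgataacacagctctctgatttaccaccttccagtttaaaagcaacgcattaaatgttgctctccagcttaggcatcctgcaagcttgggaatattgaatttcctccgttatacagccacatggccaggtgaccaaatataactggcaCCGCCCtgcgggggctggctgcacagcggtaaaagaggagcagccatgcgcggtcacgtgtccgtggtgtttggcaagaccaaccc
Abca9: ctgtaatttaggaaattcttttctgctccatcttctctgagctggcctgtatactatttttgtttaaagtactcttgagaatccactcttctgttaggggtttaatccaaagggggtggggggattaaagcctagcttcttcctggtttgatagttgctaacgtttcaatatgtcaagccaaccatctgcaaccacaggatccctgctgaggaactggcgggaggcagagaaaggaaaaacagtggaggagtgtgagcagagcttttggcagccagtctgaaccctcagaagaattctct
Abca5: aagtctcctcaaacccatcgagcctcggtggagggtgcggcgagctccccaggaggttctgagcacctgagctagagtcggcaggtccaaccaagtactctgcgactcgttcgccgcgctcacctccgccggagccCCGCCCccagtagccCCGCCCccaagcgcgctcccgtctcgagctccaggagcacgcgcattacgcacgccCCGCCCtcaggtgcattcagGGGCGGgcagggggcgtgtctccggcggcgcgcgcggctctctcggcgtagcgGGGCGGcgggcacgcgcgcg
Abcb1a: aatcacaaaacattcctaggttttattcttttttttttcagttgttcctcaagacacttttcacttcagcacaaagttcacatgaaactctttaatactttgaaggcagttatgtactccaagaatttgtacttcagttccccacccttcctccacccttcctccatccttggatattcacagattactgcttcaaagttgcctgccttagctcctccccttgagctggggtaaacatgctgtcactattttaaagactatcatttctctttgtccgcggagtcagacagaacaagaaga
Abcb1b: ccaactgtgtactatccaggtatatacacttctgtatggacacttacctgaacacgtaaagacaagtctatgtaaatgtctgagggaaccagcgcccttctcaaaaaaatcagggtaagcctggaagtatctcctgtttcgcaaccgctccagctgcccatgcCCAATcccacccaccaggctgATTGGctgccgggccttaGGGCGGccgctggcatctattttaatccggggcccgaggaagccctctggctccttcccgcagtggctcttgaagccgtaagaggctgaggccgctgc

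The window of Abca9 held none of the 3 motifs and 2 CpG dinucleotides at 45.3% GC, and that of Abcb1a also none and 2 CpG at 40.3% GC. The window of Abca5 held 5 GC boxes and 40 CpG at 72.3% GC, that of Abcb1b 1 GC box, 2 CCAAT motifs and 12 CpG, and that of Abca8b 1 GC box and 10 CpG. Windows not printed differed too. That of Abca3, which fell at least 2-fold, held 1 GC box and 29 CpG at 69.7% GC. Those of Abcg2, which also fell, held 3, 10 and 28 CpG with 0, 2 and 4 GC boxes. That of Abca16, which rose, held 9 CpG and 0 GC boxes. A relation of these windows to the changes was not tested. Among 32851 such windows in the RefSeq table the median was 7 CpG (quartiles 3 and 20), and 35.7% held GGGCGG, 37.4% CCAAT and 13.6% TATAAA. Of the members, 38 of 50 were matched by symbol to this table, with 45 windows. Of the 27 windows of tested members, 17 held GGGCGG, 8 CCAAT and 4 TATAAA. A match is a description of the letters, and the RNA data do not show which start site was used.

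Among the drug pumps, both P-glycoprotein genes fell. Mice, like rats, have a pair of them, Abcb1a and Abcb1b, for the multidrug exporter that humans encode with 1 gene. Abcb1a (ENSMUSG00000040584) had 10.5, 9.04 and 10.4 CPM in WT and 1.87, 1.36 and 1.89 CPM in FR, a 5.91-fold fall (log2 fold change −2.56 ± 0.15 SE, adjusted p = 4.36e-15). Abcb1b (ENSMUSG00000028970), the more abundant of the pair, had 72.6, 71.7 and 71.0 CPM in WT and 42.2, 42.5 and 41.4 CPM in FR, a 1.71-fold fall (log2 fold change −0.77 ± 0.04 SE, adjusted p = 4.06e-16). WT and FR did not overlap for either gene. Per length, Abcb1a made up 11.1%, 9.80% and 11.2% of the pair in WT and 3.68%, 2.68% and 3.79% in FR. That difference of 7.33 percentage points had a 2-sided exact permutation p of 0.1, the smallest that 3 against 3 libraries allow. The pair is closely similar in sequence and every value of both was fractional, as when the counting program shares out reads, so the split between them depends on that estimate. Rundc3b, the protein-coding gene next to Abcb1a, fell as well (log2 fold change −4.66 ± 0.48 SE), from 2.05 to 0.0786 CPM, whereas Slc25a40 beyond it did not pass (0.03 ± 0.05 SE). On the other side, beyond the untested Abcb4, Crot fell less far (−0.25 ± 0.05 SE) and Tmem243 did not pass (0.03 ± 0.10 SE). Farther out beyond Slc25a40, Dbf4 did not pass (−0.04 ± 0.03 SE) and Adam22 rose (1.13 ± 0.05 SE). Of all tested genes 35.5% fell.

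Abcg2 (ENSMUSG00000029802) encodes the breast cancer resistance protein, an exporter of drugs, urate and porphyrins. It had 43.7, 43.1 and 42.9 CPM in WT and 5.76, 5.59 and 6.38 CPM in FR. The WT libraries lay within 1 CPM of each other and all FR libraries were far below them. Abcg2 fell 7.32-fold (log2 fold change −2.87 ± 0.07 SE, adjusted p = 4.93e-24). The genes that follow it in genome order, Herc3 (log2 fold change −3.09 ± 0.17 SE) and Fam13a (−3.92 ± 0.26 SE), fell too, with the untested Nap1l5 between them, and Tigd2 after them fell less far (−0.45 ± 0.07 SE). On the other side the only tested gene of 4, the vomeronasal receptor gene Vmn1r28, rose (2.81 ± 0.21 SE). Of all tested genes 35.5% fell, and 11.4% fell at least 2-fold. A shared change of neighbouring genes was not tested. Abcg4, a sterol exporter best known from neurons and the only other tested G-type gene, had 0.776 to 1.28 CPM in WT and 0.519 to 0.987 CPM in FR, ranges that overlap, and did not pass (log2 fold change −0.37 ± 0.35 SE, adjusted p = 0.362).

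Of the 4 tested genes of subfamily C, which encode multidrug resistance-associated proteins, 1 rose, 1 fell and 2 did not pass. All 4 changed by less than 2-fold, and of all tested genes 34.6% were higher and 35.5% lower. Abcc1 (ENSMUSG00000023088), which exports glutathione conjugates and leukotriene C4, had 183, 172 and 181 CPM in WT and 251, 236 and 238 CPM in FR. It was 1.35-fold higher with no overlap (log2 fold change 0.43 ± 0.03 SE, adjusted p = 3.74e-13). Abcc4 (ENSMUSG00000032849), an exporter of prostaglandins and cyclic nucleotides, had 19.4, 21.4 and 23.2 CPM in WT and 14.8, 17.0 and 15.9 CPM in FR, a 1.34-fold fall (log2 fold change −0.42 ± 0.08 SE, adjusted p = 2.35e-05). Abcc5, another cyclic nucleotide and organic anion pump, was at 128 ± 1.53 CPM in WT and 132 ± 6.31 CPM in FR (SD over n = 3 libraries), with a 95% interval of −0.03 to 0.11 for the log2 fold change. Abcc10, a pump for lipophilic drugs, was at 7.60 ± 0.516 and 7.89 ± 0.620 CPM (SD over n = 3 libraries), with an interval of −0.17 to 0.29. Abcc10 shares 51 exonic bases with Dlk2 on the other strand, which fell (log2 fold change −1.36).

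Set beside each other per length, the 4 well-known efflux genes Abcb1a, Abcb1b, Abcg2 and Abcc1 changed in make-up. Abcc1 made up 50.3%, 49.3% and 50.5% of their summed CPM per kilobase in WT and 76.8%, 75.7% and 75.9% in FR. Abcg2 went from 14.4% ± 0.239 to 2.22% ± 0.175, and Abcb1b from 31.7% ± 0.618 to 20.9% ± 0.599 (SD over n = 3 libraries). WT and FR libraries did not overlap in any of these shares. The shares come from the same values as the changes of the 4 genes given above and add no further evidence for them. The pumps Abcc4, Abcc5 and Abcc10 are not part of this set.

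Abcb10 and Abcb8, mitochondrial members of subfamily B, rose by less than 2-fold. Abcb10 (ENSMUSG00000031974), an inner-membrane protein needed for heme synthesis in red cell precursors, had 37.8, 37.4 and 39.5 CPM in WT and 53.9, 55.4 and 55.1 CPM in FR (log2 fold change 0.52 ± 0.04 SE, adjusted p = 2.44e-11). All FR values of Abcb10 were above all WT values, with a 1.44-fold rise. Abcb8, another inner-membrane protein with a role in iron export, rose from 37.3 ± 1.37 to 51.5 ± 0.881 CPM (SD over n = 3 libraries). Abcb6, a porphyrin transporter, did not pass at 9.59 ± 0.874 and 8.90 ± 0.626 CPM (SD over n = 3 libraries; adjusted p = 0.373), and 55.2% of its exonic bases are shared in the GRCm38 annotation with the same-strand transcript Gm29253, so its reads are uncertain. Of 13 tested genes of mitochondrial iron-sulfur and heme assembly, 6 rose and 5 fell (median log2 fold change −0.03), against 34.6% higher and 35.5% lower among all tested genes. Ciapin1, an iron-sulfur assembly factor of the cytosol, had the smallest adjusted p among those that rose, from 36.7 ± 1.46 to 56.8 ± 1.20 CPM, and the heme synthesis enzyme gene Ppox among those that fell, from 21.2 ± 0.528 to 10.7 ± 1.13 CPM (SD over n = 3 libraries).

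The genes of subfamily D described here were lower in FR. Abcd2 (ENSMUSG00000055782), a peroxisomal importer of long fatty acids, had 2.71, 3.10 and 2.54 CPM in WT and 0.831, 1.08 and 1.04 CPM in FR, a 2.80-fold fall (log2 fold change −1.49 ± 0.24 SE, adjusted p = 2.78e-06). All FR values of Abcd2 were below all WT values. Abcd3, the abundant peroxisomal membrane protein that imports branched-chain and dicarboxylic acids, went from 91.3 ± 1.56 to 82.5 ± 3.57 CPM (SD over n = 3 libraries; log2 fold change −0.15 ± 0.04 SE). Abcd4, which serves the release of cobalamin from lysosomes, went from 14.7 ± 0.185 to 13.0 ± 0.829 CPM (SD over n = 3 libraries) with an adjusted p of 0.0438, a call that ended without any 1 of FR replicates 2 and 3 or WT replicates 1, 2 and 3 (adjusted p = 0.0516 to 0.161). It also ended with DESeq2 (adjusted p = 0.12) and with the replicate block (adjusted p = 0.0582).

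Genes that work with the D-type transporters were counted from lists, to be read against 34.6% higher and 35.5% lower among all tested genes. Of 13 tested genes of peroxisomal oxidation and assembly, 3 rose and 7 fell (median log2 fold change −0.11). Pex19, which brings membrane proteins to the peroxisome, fell from 58.8 ± 2.28 to 44.1 ± 1.13 CPM, and the lipid carrier gene Scp2 rose from 78.1 ± 1.74 to 98.5 ± 3.35 CPM (SD over n = 3 libraries). Of 8 genes of cobalamin handling, 3 rose and 5 fell (median −0.20). The plasma carrier gene Tcn2 fell from 6.47 ± 0.625 to 1.97 ± 0.303 CPM, and Mtr, the cobalamin-dependent methionine synthase, rose from 44.0 ± 0.393 to 66.1 ± 1.09 CPM (SD over n = 3 libraries).

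Of the members without a membrane part, Abce1 and Abcf3 did not pass, and Abcf1 and Abcf2 rose by at most 1.18-fold. In the domain annotation deposited with the table, Abce1 and the 3 Abcf genes were the only members with the ABC cassette domain and none of the ABC membrane domains. Abce1 (ENSMUSG00000058355), which splits ribosomes after termination, had 240, 232 and 239 CPM in WT and 239, 249 and 239 CPM in FR, ranges that overlap (log2 fold change 0.03, 95% interval −0.02 to 0.09). Abcf1 (ENSMUSG00000038762), a partner of the initiation factor eIF2, had 204, 210 and 210 CPM in WT and 243, 250 and 244 CPM in FR. It rose 1.18-fold (log2 fold change 0.24 ± 0.03 SE, adjusted p = 9.21e-09), and Abcf2 rose 1.14-fold, from 175 ± 1.37 to 200 ± 4.15 CPM (SD over n = 3 libraries). Both were small changes with no overlap. Abcf3 was at 54.5 ± 2.45 and 53.4 ± 3.53 CPM (SD over n = 3 libraries; log2 fold change −0.03, 95% interval −0.13 to 0.07). Of 13 genes of ribosome recycling, rescue and translation control, 8 rose and 3 fell (median 0.23), beside 34.6% and 35.5% of all tested genes. Nothing particular to the list is read from this count. Eif3j2 rose from 66.1 ± 2.10 to 110 ± 1.84 CPM and its close copy Eif3j1 fell from 50.8 ± 1.16 to 19.6 ± 1.75 CPM (SD over n = 3 libraries), so the share-out of their reads is uncertain.

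Other genes that work with ABC transporters were counted from lists, again beside 34.6% higher and 35.5% lower among all tested genes (median log2 fold change 0.00). Of 14 tested genes around sterol efflux, 3 rose and 8 fell (median log2 fold change −0.27). Pltp, the phospholipid transfer protein, fell from 78.7 ± 0.848 to 6.21 ± 0.477 CPM, and the nuclear receptor gene Rxrb rose from 42.8 ± 0.970 to 60.1 ± 3.57 CPM (SD over n = 3 libraries). Nr1h2, which encodes the sterol-sensing receptor LXR-beta, did not pass at 57.3 CPM in WT (log2 fold change −0.01), and Nr1h3 was too low to test. Of 7 tested factors that control drug-efflux genes, 1 rose and 4 fell (median −0.08). Ahr, the aryl hydrocarbon receptor, fell from 29.6 ± 0.590 to 14.6 ± 0.172 CPM and Trp53 rose from 181 ± 2.55 to 203 ± 5.40 CPM (SD over n = 3 libraries). Of 10 organic anion uptake genes only 2 could be tested. The prostaglandin transporter gene Slco2a1 rose from 13.1 ± 0.640 to 24.3 ± 1.17 CPM, and Slco3a1 fell from 43.3 ± 1.93 to 31.5 ± 1.22 CPM (SD over n = 3 libraries).

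ABC genes with other names changed in opposite directions. Tap1 and Tap2 encode the paired peptide transporter of antigen presentation. Tap1 fell from a mean of 22.4 ± 1.04 to one of 15.3 ± 0.293 CPM (log2 fold change −0.55 ± 0.07 SE) and Tap2 rose from 45.7 ± 0.323 to 59.0 ± 2.48 CPM (SD over n = 3 libraries; 0.37 ± 0.04 SE). The 6 other genes of peptide loading split into 2 that rose, led by Tapbp (log2 fold change 0.20 ± 0.03 SE), and 4 that fell, led by Erap1 (−0.39 ± 0.05 SE), with a median of −0.24, where 70.1% of all tested genes were called in either direction. Of the pyrophosphate genes named beside Abcc6, 3 were tested. Ank, a membrane protein for pyrophosphate and ATP release, fell from 158 ± 5.96 to 113 ± 1.93 CPM (SD over n = 3 libraries), and Enpp1 (log2 fold change −0.03) and Enpp3 (0.58) did not pass.

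Libraries of a group were close to each other for most members. The median coefficient of variation of the 28 genes was 3.51% in WT and 5.97% in FR. It was above 25% in FR for Abca9 (40.9%), Abcg4 (31.6%) and Abca1 (27.4%), genes at under 3 CPM there. In WT it was above 25% for Abca16 (38.6%) and Abcg4 (30.8%), genes at under 1 CPM there. Values of 11 of the 28 tested genes held fractions in at least 1 library, which marks reads that the authors' counting divided among genes, and 7 of the 28 share exonic bases with another annotated gene. For Abca3 these are 914 bases shared with D330041H03Rik on the other strand (at 3.53 CPM in WT against 2.83 in FR), and without a stated strand setting such reads cannot be told apart.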

How the data were processed

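RNA was sequenced from 3 WT and 3 FR libraries. Per the labels' protocols, poly(A) RNA was selected, fragmented, primed with random hexamers and sequenced in pairs; strand is not stated. The authors deposited expected counts per gene, not scaled to depth. Per the submitters' processing notes, fastp, HISAT, RSEM and the build GRCm39 were used, with versions not given in the sources used here. The deposited gene length, in bases (other unit), was used for levels per kilobase. Of 54433 genes, 733 are assembled loci without a name (1.16% of counts), which were kept.

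Counts were rounded, filtered with filterByExpr and scaled by TMM in edgeR 4.0.16 (R 4.3.3), which left 14889 genes. The comparison of FR with WT used its quasi-likelihood F-test in the robust form over the whole table, with Benjamini-Hochberg adjustment over all tested genes and a threshold of 0.05. Alternatives used limma 3.58.1 and DESeq2 1.42.0 among others. The steps were run on simulated counts in which few genes were changed. Their behaviour where 70.1% of tested genes are called, as here, was therefore not tested. Figures used matplotlib 3.10.9. Every member was counted, and single values of a few are not reported here. Values per library were given for members changed at least 2-fold and for those with the smallest adjusted p in each direction per subfamily, and for other members where they help. From other lists the smallest adjusted p in each direction was named. Neighbouring genes, Abca1, Abcb1b and Abca6 were singled out after their values were seen. The members and lists were chosen with earlier results of these data known. GRCm38 annotation (GENCODE M21) matched 50 of 50 members by identifier.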

Additional observations from a re-analysis of the deposited data

How the results depend on the processing

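Over 16 other settings the count of ABC genes called higher stayed between 9 and 10, and the count called lower between 10 and 13, against 10 and 11. Leaving out each library gave 9 to 10 higher and 10 to 12 lower, and 5 to 7 at least 2-fold lower. The count at least 2-fold higher, which is Abca16, was 0 with a filter at a mean of 1 CPM, since that gene was then not tested, and 0 to 1 with each library left out. The replicate block gave 10 higher and 10 lower, the same calls but for Abcd4, which ended. The deviations of same-numbered libraries correlated at −0.03 to −0.00. No pairing by number was seen, though 3 libraries per group are too few to settle it. Of 446 log2 fold changes of single genes, 428 kept their direction and side of the threshold. Sign changes were seen for genes that did not pass in any setting: with 1 library left out Abcf3 ran from −0.087 to 0.0073 (above 0 without WT replicate 3, at 0.0053, or without FR replicate 3), Abcc5 from −0.0042 (without FR replicate 1) to 0.066 and Abcc10 from −0.010 (without FR replicate 2) to 0.10. Abca1 passed in 6 settings, and Abcd4 and Abca16 lost their call in 7 and 1. No filter added Abca6 (log2 fold change −3.82). Leaving out assembled loci and thinning to the smallest library were chosen after seeing the data and changed no call except that of Abca1. Depth limits the 22 untested genes and Abca16.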
